A study of Mus musculus with 22 samples.

Results

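Pnliprp1, Pnliprp2, Clps, Sycn, Cela1, Cela2a, Cela3b and Cpb1 are genes of the exocrine pancreas that were measured here in epithelial cells of the mouse colon. They were chosen by name, with earlier results of these arrays known, and every probe that the platform annotation assigns to them was used: 12 of 45281 probes, for 8 of 19057 named genes. Levels came from 22 Illumina bead arrays, and all are log2 values after background correction and quantile normalisation, where values near 4.3 are those of probes with no signal above background. The BALB/c mice, labelled male and 6 to 10 weeks old, carried the normal gene (WT) or lacked the polymeric immunoglobulin receptor (labelled pIgR-KO, here KO), which carries secretory antibodies through the epithelium into the gut. They were untreated or had received antibiotics for 17 days, in 5 WT_untreated, 5 WT_antibiotic, 6 KO_untreated and 6 KO_antibiotic arrays. The sources used here name no agent and do not say if mice were pooled. Epithelium was shaken off the opened colon in 20 mM EDTA for 25 min after mesenteric and fat tissue had been taken away, and no sorting step is named. Nothing in the sources says that arrays of a group came from separate mice, so the p-values measure only the spread between these arrays.

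Acinar cells of the pancreas make the enzymes that digest fat, protein and starch and store them in zymogen granules. Pancreatic lipase splits dietary triglyceride and is held on the fat droplet, against bile salts, by its small cofactor colipase, the product of Clps. Its relatives are encoded by Pnliprp2, a lipase that also splits galactolipids and phospholipids, and by Pnliprp1, which has little known lipase activity. Of the other genes, Cela1, Cela2a and Cela3b encode elastases and Cpb1 a carboxypeptidase, while Sycn encodes syncollin of the zymogen granule membrane. Pnliprp1, Pnliprp2 and Clps are called lipase-type genes below and the other 5 acinar genes.

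Promoter sequences are shown for 3 genes whose levels followed different patterns on these arrays, as described further on. They are RefSeq windows of the assembly GRCm38.p6, from 250 bases before to 50 after the gene start, read 5′ to 3′ on the strand of the gene. Capitals mark the E-box CANNTG, the core to which basic helix-loop-helix factors of acinar cells bind, and TTTCCCA or its complement TGGGAAA, the Rbpj part of the element bound by the acinar factor complex PTF1. The Pnliprp1 window lies at chr19:58728637-58728936 on the plus strand, that of Pnliprp2 at chr19:58759473-58759772 on the plus strand, and that of Cela2a at chr4:141825956-141826255 on the minus strand.
Pnliprp1: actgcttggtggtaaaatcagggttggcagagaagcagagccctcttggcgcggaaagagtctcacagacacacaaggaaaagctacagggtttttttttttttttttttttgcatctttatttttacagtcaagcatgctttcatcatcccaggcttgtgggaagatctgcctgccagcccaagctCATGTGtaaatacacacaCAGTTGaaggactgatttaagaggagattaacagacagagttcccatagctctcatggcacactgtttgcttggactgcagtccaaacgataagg
Pnliprp2: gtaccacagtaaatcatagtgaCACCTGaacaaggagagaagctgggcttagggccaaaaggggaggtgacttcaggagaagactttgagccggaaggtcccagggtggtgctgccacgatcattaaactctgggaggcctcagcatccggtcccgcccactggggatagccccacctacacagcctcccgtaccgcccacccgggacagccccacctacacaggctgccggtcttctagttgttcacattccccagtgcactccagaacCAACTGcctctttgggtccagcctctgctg
Cela2a: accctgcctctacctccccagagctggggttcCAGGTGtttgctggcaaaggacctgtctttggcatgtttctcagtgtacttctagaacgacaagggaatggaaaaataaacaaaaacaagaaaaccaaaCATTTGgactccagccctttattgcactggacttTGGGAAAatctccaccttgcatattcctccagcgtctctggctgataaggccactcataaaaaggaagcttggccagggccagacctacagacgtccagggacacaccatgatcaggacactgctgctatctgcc
Both motifs were searched on both strands and do not overlap. CANNTG occurs 2 times in each of the 3 windows, and TTTCCCA occurs only in that of Cela2a, 1 time, on the opposite strand. Of all 32851 promoter windows, 72.3% hold CANNTG, 8.06% hold TTTCCCA and 6.04% hold both. Windows were found for 7 of the 8 genes, Clps not being listed, and the other 4 hold no TTTCCCA and 0 (Sycn) to 5 (Cela1) copies of CANNTG. A match describes these letters and is not a bound site. Pnliprp1 and Pnliprp2 follow each other on chromosome 19, directly after Pnlip, the pancreatic lipase gene, for which no probe was named.

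Transcripts of the pancreas were present on 3 WT arrays, WT_untreated 4, WT_antibiotic 1 and WT_antibiotic 5. They were singled out after the values were seen, as the arrays on which a Cpb1 probe (ILMN_3160208) was detected. Of 31 other genes of the exocrine pancreas with a probe, 14 lay higher on each of these 3 arrays than on all other 19, and 12 were detected nowhere else. The amylase gene Amy2a5 measured 13.31, 10.51 and 12.83 on WT_untreated 4, WT_antibiotic 1 and WT_antibiotic 5 and at most 5.38 elsewhere. The trypsin gene Try4 measured 9.41, 6.92 and 9.28 there and at most 4.37 elsewhere. Ptf1a and Rbpjl, which encode acinar transcription factors, were detected on 0 of 22 arrays. Neither the KO arrays nor the other WT arrays carried this signal at such levels. Of the 31 genes, between 6 and 9 were detected on a KO array and between 7 and 9 on the other WT arrays. On WT_untreated 4, WT_antibiotic 1 and WT_antibiotic 5 there were 23, 19 and 20. Amy2a5 was also detected, at low levels, on KO_untreated 4 (5.38), WT_antibiotic 4 (5.18) and KO_antibiotic 4, 5 and 6 (4.81, 5.13 and 4.83). Group differences that rest on the 3 arrays are therefore given with and without them, or with single arrays among them left out.

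The label of colon epithelium fitted the markers. All 14 measured colon epithelium markers were detected on every array, and between 15975 and 18388 probes were detected per array. The probe of Pigr, the targeted gene, lay between 11.32 and 12.50 on WT arrays and between 8.74 and 10.73 on KO arrays, so no KO array reached a WT array. Descriptions of KO_untreated 2 to 6 carry a suffix that no other array has and whose meaning the sources used here do not give. The descriptions of KO_untreated 1 and 2 otherwise carry the same number, so these 2 of the 6 arrays may come from the same mouse. WT_untreated 3 and KO_untreated 6 also share a number apart from the suffix but differ in genotype. A shared number therefore need not mean a shared mouse. The correlation of KO_untreated 1 and 2 over probes was 0.95, within the range of 0.916 to 0.989 over pairs of arrays in a group. Since the samples are bulk RNA, fewer cells of a type and less RNA per cell cannot be told apart.

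**Figure D1:**
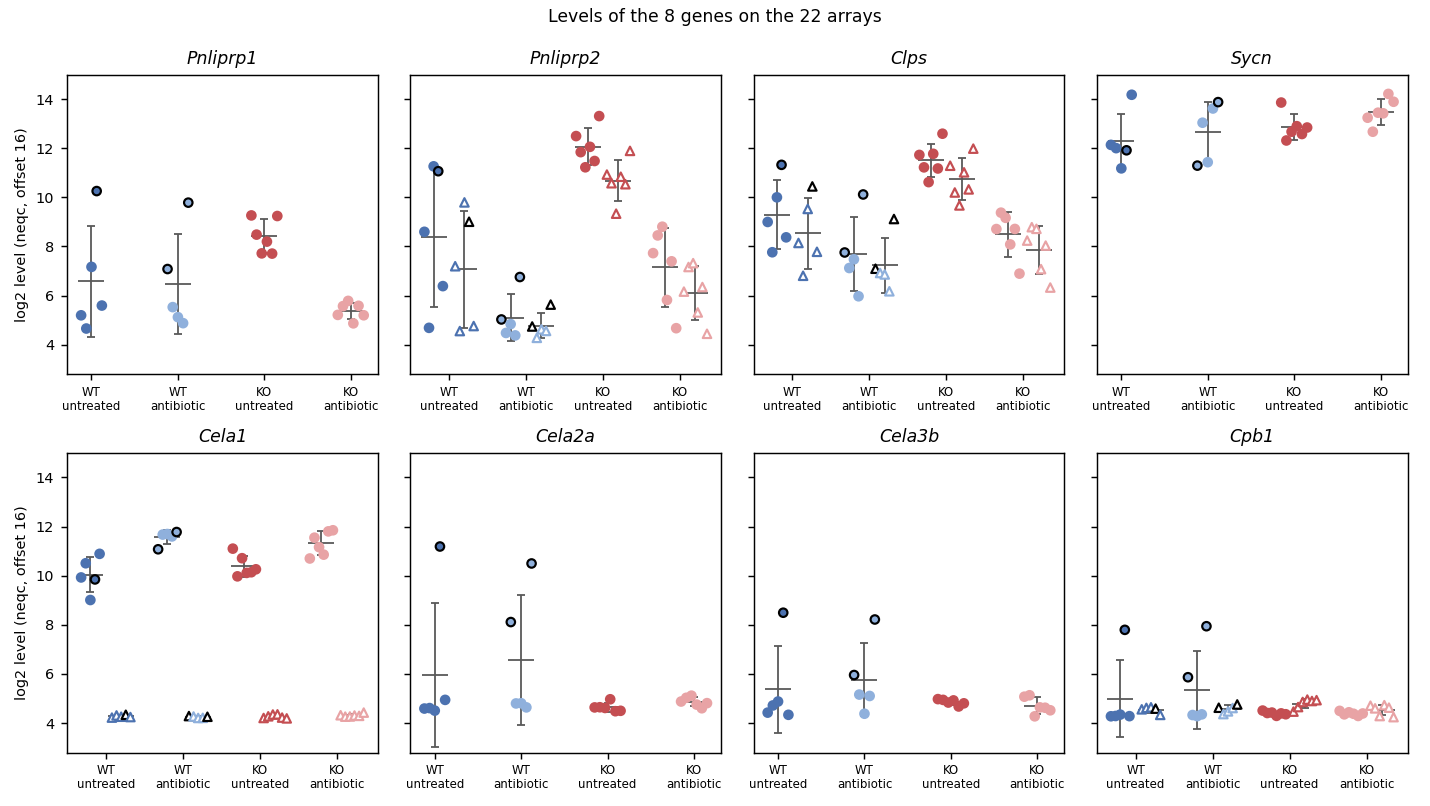
Log2 level of each gene on each of the 22 arrays by group. Filled circles are the brighter probe of a gene and open triangles its second probe, grey bars are mean ± SD (n = 5, 5, 6 and 6), and black outlines mark the 3 arrays with pancreatic transcripts. Pnliprp2, Clps and Pnliprp1 have their highest group means in KO_untreated, with 2 WT arrays above all KO arrays for Pnliprp1, while Cela2a, Cela3b and Cpb1 stand above background on the outlined arrays and Sycn and Cela1 are bright throughout.

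Pnliprp2, the gene of the galactolipid-splitting lipase relative, spanned the widest range of the 8 genes, from background to 13.31 (probe ILMN_2990661). In WT_untreated mice its level was 8.60, 4.69, 11.26, 11.06 and 6.39 on replicates 1 to 5. With antibiotics the WT arrays measured 5.03, 4.48, 4.84, 4.38 and 6.76, and only 3 of these 5 were detected. Untreated KO mice measured 12.49, 11.84, 11.22, 12.06, 11.48 and 13.31 (lowest 11.22, highest 13.31), and KO mice with antibiotics 7.73, 8.45, 8.81, 5.82, 7.40 and 4.67. All 6 KO_untreated arrays were thus high and close together, whereas WT_untreated arrays ran from near background to the KO level, and WT_antibiotic arrays were low. The group means were 12.07 ± 0.75 (SD, n = 6) in KO_untreated, 8.40 ± 2.88 (SD, n = 5) in WT_untreated, 7.15 ± 1.60 (SD, n = 6) in KO_antibiotic and 5.10 ± 0.96 (SD, n = 5) in WT_antibiotic. In that order each group overlaps its neighbour, and WT_untreated and KO_antibiotic differ by less than their spread.

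The second Pnliprp2 probe (ILMN_2692167) gave the same order of groups, with a correlation of 0.99 to the first over 22 arrays. It averaged 10.68 ± 0.82 (SD, n = 6) in KO_untreated, 7.06 ± 2.39 (SD, n = 5) in WT_untreated, 6.13 ± 1.10 (SD, n = 6) in KO_antibiotic and 4.77 ± 0.51 (SD, n = 5) in WT_antibiotic.

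Clps, the colipase gene, was detected on all 22 arrays and followed the same order of groups. Its brighter probe (ILMN_1246265) measured 9.0, 7.77, 10.00, 11.32 and 8.37 in WT_untreated and 7.76, 7.12, 7.48, 5.97 and 10.12 in WT_antibiotic. It measured 11.73, 11.22, 10.62, 11.77, 11.18 and 12.59 in KO_untreated and 8.71, 9.38, 9.17, 8.08, 8.71 and 6.90 in KO_antibiotic. The highest WT values, 11.32 and 10.12, were those of WT_untreated 4 and WT_antibiotic 5, both arrays with pancreatic transcripts. KO_antibiotic 6 was the lowest of its group for Clps, as it was for Pnliprp2. Means were 11.52 ± 0.67 (SD, n = 6) in KO_untreated, 9.29 ± 1.40 (SD, n = 5) in WT_untreated, 8.49 ± 0.90 (SD, n = 6) in KO_antibiotic and 7.69 ± 1.52 (SD, n = 5) in WT_antibiotic. Each group overlaps its neighbour in that order, and 3 of 6 KO_untreated arrays lay above every WT_untreated array. The second Clps probe (ILMN_2722659) had a correlation of 0.99 to this one and the same order, from 10.75 ± 0.84 (SD, n = 6) in KO_untreated down to 7.23 ± 1.11 (SD, n = 5) in WT_antibiotic.

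Pnliprp1, the relative with little lipase activity, combined both patterns. Its probe (ILMN_1225909) measured 9.26, 8.48, 7.72, 8.20, 7.71 and 9.24 in KO_untreated and 5.22, 5.57, 5.79, 4.87, 5.59 and 5.20 in KO_antibiotic, 2 groups that do not overlap. In WT mice it measured 5.20, 4.66, 7.17, 10.26 and 5.60 without and 7.08, 5.53, 5.12, 4.88 and 9.79 with antibiotics. The 2 highest values of all, 10.26 and 9.79, came from WT_untreated 4 and WT_antibiotic 5, which carried pancreatic transcripts, while WT_untreated 3, at 7.17, carried none. The means were 8.44 ± 0.70 (SD, n = 6) in KO_untreated, 6.58 ± 2.26 (SD, n = 5) in WT_untreated, 6.48 ± 2.04 (SD, n = 5) for WT mice with antibiotics and 5.37 ± 0.34 (SD, n = 6) in KO_antibiotic.

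Among the acinar genes, Sycn and Cela1 were bright on every array. Sycn, the granule membrane gene (ILMN_1232533), measured 12.14, 12.00, 11.18, 11.92 and 14.18 in WT_untreated and 11.29, 13.04, 11.43, 13.62 and 13.88 in WT_antibiotic. It measured 13.86, 12.32, 12.67, 12.90, 12.58 and 12.84 in KO_untreated and 13.24, 12.67, 13.45, 13.42, 14.21 and 13.89 in KO_antibiotic. All 4 groups overlap, with means from 12.28 ± 1.12 (SD, n = 5) in WT_untreated to 13.48 ± 0.53 (SD, n = 6) in KO_antibiotic. The elastase gene Cela1 (ILMN_2693403) measured 9.93, 10.51, 9.01, 9.85 and 10.89 in WT_untreated and 11.07, 11.67, 11.70, 11.60 and 11.78 in WT_antibiotic. It measured 11.10, 9.97, 10.71, 10.11, 10.14 and 10.26 in KO_untreated and 10.70, 11.55, 11.16, 10.86, 11.80 and 11.85 in KO_antibiotic. Every WT_antibiotic array lay above every WT_untreated array, while the KO groups overlap. The other Cela1 probe (ILMN_2544139) was detected on 0 of 22 arrays.

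Cela2a, Cela3b and Cpb1 were at or near background except on the 3 arrays with pancreatic transcripts. The elastase gene Cela2a (ILMN_2674620) measured 11.19 on WT_untreated 4, 8.11 on WT_antibiotic 1 and 10.50 on WT_antibiotic 5, and between 4.48 and 5.12 on the other 19 arrays. Cela3b (ILMN_2671137), the third elastase gene, measured 8.49, 5.96 and 8.22 on these 3 arrays and between 4.27 and 5.16 elsewhere. The carboxypeptidase gene Cpb1 measured 7.79, 5.87 and 7.94 by the probe ILMN_3160208, which chose the arrays, and between 4.28 and 4.51 elsewhere. Its other probe (ILMN_1259010) stayed between 4.24 and 4.96 on all 22 arrays, so the 2 Cpb1 probes did not follow each other. On the 6 KO_untreated arrays, where Pnliprp2 lay at 11.22 or more, Cela2a was between 4.48 and 4.97 and detected 1 time.

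**Figure D2:**
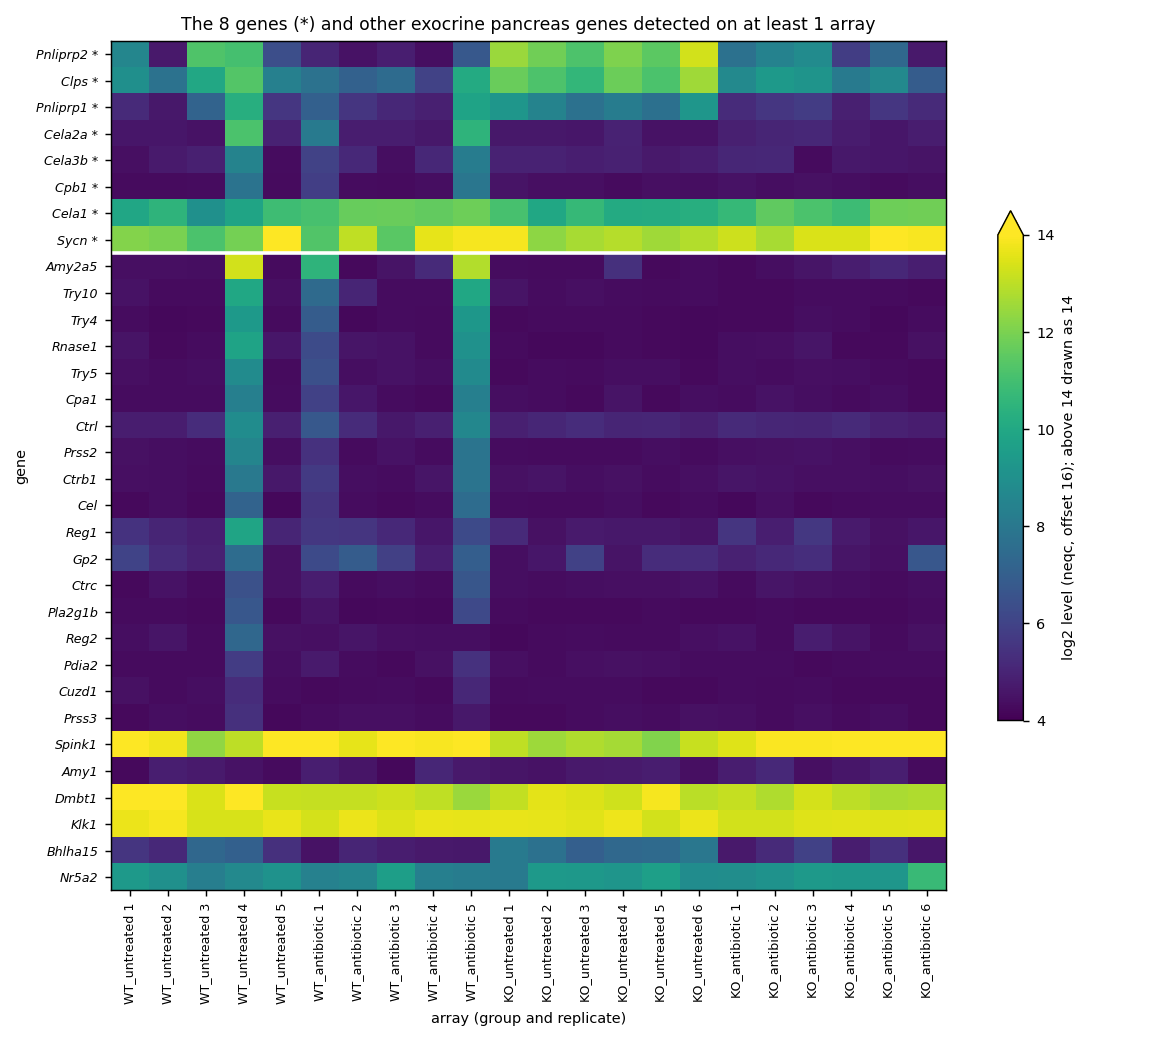
Heat map of log2 levels of the 8 genes (marked *, above the white line) and of the other exocrine pancreas genes detected on at least 1 array, with a column per array and colours from 4 to 14. Enzyme genes such as Amy2a5 stand out on WT_untreated 4, WT_antibiotic 1 and WT_antibiotic 5. Pnliprp2, Clps, Pnliprp1 and Bhlha15 are bright on all 6 KO_untreated arrays and also on WT_untreated 4. On WT_untreated 3, Pnliprp2, Clps and Bhlha15 are also bright and Pnliprp1 measured 7.17. Clps and Pnliprp1 are also bright on WT_antibiotic 5.

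The comparison of KO with WT mice under antibiotics is the one tested. Its difference of means leaves out the untreated arrays on which the list was drawn up. Those arrays still took part in the normalisation and the filter on dim probes. Their spread also enters the SE, interval and p of the limma fit, so the test is not fully independent of them. Of 12 probes, 10 passed the filter on dim probes (a detection p under 0.05 on at least 5 arrays) and entered the limma fit. The Cpb1 probe among them (ILMN_1259010) was detected on 6 arrays, 4 of them KO_untreated. None of these 10 differed at an adjusted p under 0.05 (Benjamini-Hochberg over 19993 probes), where 0.03% of all tested probes did. Of the 10, 1 had an unadjusted p under 0.05, beside 654 of the 19993. Pnliprp2 was 2.05 higher on the log2 scale in KO mice (SE 0.91, adjusted p = 1.0, limma, 95% interval 0.17 to 3.92), which is 4.14-fold, and 4 of 6 KO arrays lay above every WT array. Its second probe was 1.36 higher (SE 0.72), and either difference had an exact two-sided permutation p of 0.0411 over 462 splits, before adjustment for 10 probes. Clps was 0.80 higher (SE 0.61, 95% interval -0.46 to 2.06) by its brighter and 0.63 higher (SE 0.58) by its other probe, with overlapping groups. Pnliprp1 was 1.11 lower in KO mice (log2 -1.11, SE 0.79) and its groups overlap.

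The acinar genes did not pass in this comparison either. Sycn stood 0.83 higher (SE 0.47) in KO mice, and Cela1 differed by -0.24 (SE 0.28, 95% interval -0.82 to 0.33). Cela2a differed by -1.71 (SE 0.99), Cela3b by -1.05 (SE 0.59) and Cpb1 (ILMN_1259010) by -0.04 (SE 0.13). Leaving out WT_antibiotic 1 and 5 and WT_untreated 4 turned the direction of Pnliprp1 to 0.19, of Cela2a to 0.12 and of Cpb1 to 0.05, and brought Cela3b to -0.17. It took Pnliprp2 to 2.59 and Clps to 1.64, and again 0 of 10 probes passed.

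The list was drawn up with the untreated comparison in view, so its values are a description. Pnliprp2 stood 3.67 (SE 0.91) and 3.62 (SE 0.72) higher in untreated KO than WT mice by its probes. Clps stood 2.23 (SE 0.61) and 2.21 (SE 0.58) higher and Pnliprp1 1.86 (SE 0.79) higher. The acinar genes stood at 0.58 (SE 0.47) for Sycn, 0.35 (SE 0.28) for Cela1, -1.33 (SE 0.99) for Cela2a, -0.51 (SE 0.59) for Cela3b and 0.25 (SE 0.13) for Cpb1. The median over the 5 lipase-type probes was 2.23 and over the 5 acinar probes 0.25, beside 0.04 over all tested probes. The acinar median is the value of the Cpb1 probe, which stayed near background. Cela2a and Cela3b were also near background outside the 3 arrays with pancreatic transcripts. In the fit, 4 of the 10 probes were past the threshold and higher, those of Pnliprp2 and Clps, where 10.9% of all tested probes were past it and 5.55% higher, and since the list was chosen on this comparison nothing is read from the count. It was 5 without WT_untreated 4, 3 without WT_untreated 1, 2 without WT_untreated 2 or KO_untreated 1, and 1 without WT_untreated 5. The count was also 2 with median scaling over all probes and 1 with no filter on dim probes. Without the 3 arrays with pancreatic transcripts the differences were 4.35 for Pnliprp2, 2.74 for Clps, 2.79 for Pnliprp1, -0.02 for Cela2a and 0.27 for Cela3b. With KO_untreated 1, the array lacking the suffix, alone for its group, they were 4.08 for Pnliprp2, 2.42 for Clps, 2.68 for Pnliprp1, 1.60 for Sycn and 1.06 for Cela1.

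With antibiotics, levels of the lipase-type genes in KO mice were far below those of untreated KO mice, while those of Sycn and Cela1 were not. Cela2a, Cela3b and Cpb1 (ILMN_1259010) averaged 4.64, 4.86 and 4.79 on KO_untreated arrays, near background. They had no room for such a fall. All these values share the KO_untreated arrays with the comparison behind the list and so carry no test. The log2 differences were -4.92 (SE 0.87) and -4.56 (SE 0.69) for Pnliprp2, -3.03 (SE 0.58) and -2.88 (SE 0.56) for Clps and -3.06 (SE 0.76) for Pnliprp1. This corresponds to 30.3-fold, 8.15-fold and 8.37-fold lower levels by the brighter probes, and each of the 5 probes had all 6 KO_antibiotic arrays below all 6 KO_untreated arrays, as did 3.87% of all tested probes. The acinar genes stood at 0.62 (SE 0.45) for Sycn, 0.94 (SE 0.26) for Cela1, 0.22 (SE 0.94) for Cela2a, -0.15 (SE 0.56) for Cela3b and -0.26 (SE 0.12) for Cpb1. The lipase-type median was -3.06 and the acinar median 0.22, the value of Cela2a near background, beside 0.01 over all tested probes. Past the threshold lay the 5 lipase-type probes, lower, and Cela1, higher, where 12.4% of all tested probes lay past it, 7.06% lower and 5.33% higher. The 5 lower probes were past it without each array in turn, KO_untreated 1 or 2 included, while Cela1 was not without KO_untreated 2, with median scaling over all probes or with no filter on dim probes. With KO_untreated 1 alone for its group, a lone array assumed to vary like the other groups, the differences were as large, at -5.33 for Pnliprp2, -3.22 for Clps, -3.88 for Pnliprp1 and -0.39 for Sycn, with 0 of 9 tested probes past the threshold.

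In WT mice the values with antibiotics against untreated were -3.30 (SE 0.95) and -2.29 (SE 0.76) for Pnliprp2, -1.60 (SE 0.64) and -1.31 (SE 0.61) for Clps and -0.10 (SE 0.83) for Pnliprp1. Cela1 was 1.53 (SE 0.29) higher, with no overlap of the groups, as for 3.2% of all tested probes in this direction, while Sycn stood at 0.37 (SE 0.49), Cela2a at 0.60 (SE 1.03) and Cela3b at 0.39 (SE 0.61). With each array left out, Cela2a ran from -0.38 without WT_antibiotic 5 to 1.91 without WT_untreated 4. Cela3b ran from -0.22 to 1.18 without the same arrays. Past the threshold lay Cela1, higher, and the brighter Pnliprp2 probe, lower, where 4.75% of all tested probes did, 2.49% higher and 2.27% lower. The Pnliprp2 call was lost with the authors' processed values, either median scaling, no background correction, no filter on dim probes, only the groups compared or the replicate block, each giving 0 lower probes. The number of lower probes ranged from 0 to 2 with each array left out: it was 2 without WT_antibiotic 5, WT_untreated 2 or WT_untreated 5 and 0 without any other. Without the 3 arrays with pancreatic transcripts, which leaves 4 WT_untreated and 3 WT_antibiotic arrays, the values were -3.17 for Pnliprp2, -1.93 for Clps, -0.48 for Pnliprp1 and 1.58 for Cela1, and 0 probes were past the threshold. The effect of antibiotics in KO minus that in WT mice was -1.62 (SE 1.28) and -2.26 (SE 1.03) for Pnliprp2, -1.42 (SE 0.86) for Clps and -2.97 (SE 1.12) for Pnliprp1. Of the 10 probes 0 passed for this difference between the effects by limma, beside 0.01% of all tested probes. At an unadjusted p under 0.05 there were 2, beside 1755 of all 19993 tested probes.

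**Figure D3:**
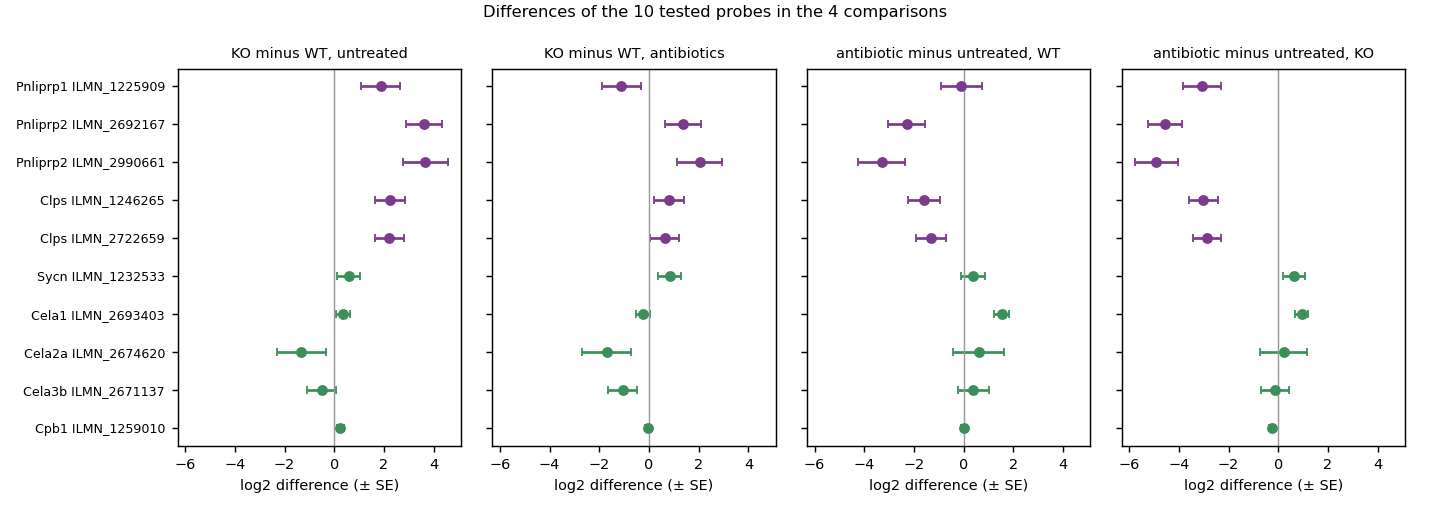
Log2 difference of each of the 10 tested probes in 4 comparisons, with bars of ± SE from the limma fit of 22 arrays. Lipase-type genes are purple and acinar genes green. In KO mice the 5 lipase-type probes lie between -4.92 and -2.88 and the acinar ones between -0.26 and 0.94. Of the acinar genes, Cela2a, Cela3b and Cpb1 were near background on all KO arrays.

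Whether the lipase-type genes moved apart from the acinar genes was also read array by array, as the difference between a lipase-type and an acinar gene on the same array, using the brighter tested probe of each. This compares changes and sets no level of a gene against that of another. In KO mice with antibiotics against untreated, the shift was negative in all 15 such pairs, which reuse 3 lipase-type and 5 acinar genes and the KO_untreated arrays, and so are a description with no test. The shift ran from -2.76 (SE 0.44) for Clps against Cpb1 to -5.86 (SE 0.80) for Pnliprp2 against Cela1. Cela2a, Cela3b and Cpb1 were near background on all KO arrays, so pairs with them mostly repeat the fall of the lipase-type gene. Over pairs with Sycn or Cela1 alone, the shift ran from -3.65 (SE 0.59) for Clps against Sycn to the same -5.86. In KO against WT mice with antibiotics, Pnliprp2 moved by 2.29 (SE 0.84) against Cela1 and by 1.22 (SE 0.97) against Sycn. Against Cela2a it moved by 3.75 (SE 1.01), with 5 of 6 KO arrays above all WT arrays, a value in which the Cela2a levels of WT_antibiotic 1 and 5 enter. Clps moved by -0.03 (SE 0.95) against Sycn, 1.05 (SE 0.81) against Cela1 and 0.84 (SE 0.73) against Cpb1. Against Cela2a and Cela3b, whose levels on WT_antibiotic 1 and 5 enter likewise, Clps moved by 2.51 (SE 0.73) and 1.85 (SE 0.50). Pnliprp1 moved the other way against 3 genes, by -1.94 (SE 0.95) against Sycn, -1.07 (SE 0.88) against Cpb1 and -0.86 (SE 0.94) against Cela1, and by 0.60 (SE 0.35) against Cela2a and -0.06 (SE 0.37) against Cela3b. With all arrays used, the 3 lipase-type genes thus did not share a direction against the acinar genes in this comparison. The Pnliprp1 values include WT_antibiotic 1 and 5, at 7.08 and 9.79, which carried pancreatic transcripts. Without the 3 arrays with such transcripts, the KO minus WT differences of Pnliprp2, Clps and Pnliprp1 themselves were 2.59, 1.64 and 0.19. Shifts against the acinar genes were not computed without these arrays.

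Across arrays, with each group's mean subtracted, Pnliprp2 and Clps varied together (Pearson correlation 0.85 over 22 arrays, 0.88 over the 19 without pancreatic transcripts). Of 10398 genes compared, the 5 most like Pnliprp2 were Itln1 at 0.90, Ang4 at 0.87, Clps at 0.85, Mfsd2a at 0.83 and H6pd at 0.83. Itln1 encodes intelectin and Ang4 an antimicrobial ribonuclease, both known from Paneth and goblet cells, Mfsd2a a lipid transporter and H6pd a dehydrogenase of the endoplasmic reticulum. For Clps the 5 were Pnliprp1 at 0.87, Pnliprp2 at 0.85, Itln1 at 0.83, Ang4 at 0.80 and the goblet cell gene Clca1 at 0.79. The correlation of Pnliprp2 was -0.49 with Cela1 and -0.24 with Sycn, and with Cela2a it was 0.47 over 22 arrays and -0.00 over 19. These are descriptions over arrays that share a platform and a normalisation.

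Pnliprp1 changed its companions with the 3 arrays that held pancreatic transcripts. Its closest genes, chosen after the values were seen, were Ctrl at 0.91, Cela2a at 0.90 and Cela3b at 0.90, Ctrl being a chymotrypsin-like protease gene. Over the 19 other arrays these correlations were 0.15, -0.02 and 0.19, whereas those with Pnliprp2 and Clps were 0.76 and 0.71. There the correlation with Bhlha15, the gene of the acinar and secretory cell transcription factor Mist1, was 0.89. Cela2a followed Amy2a5 at 0.98 over 22 and 0.02 over 19 arrays. Cela1 followed another set, with the transcription factor gene Foxq1 at 0.89, and its correlation with Sycn was 0.64.

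**Figure D4:**
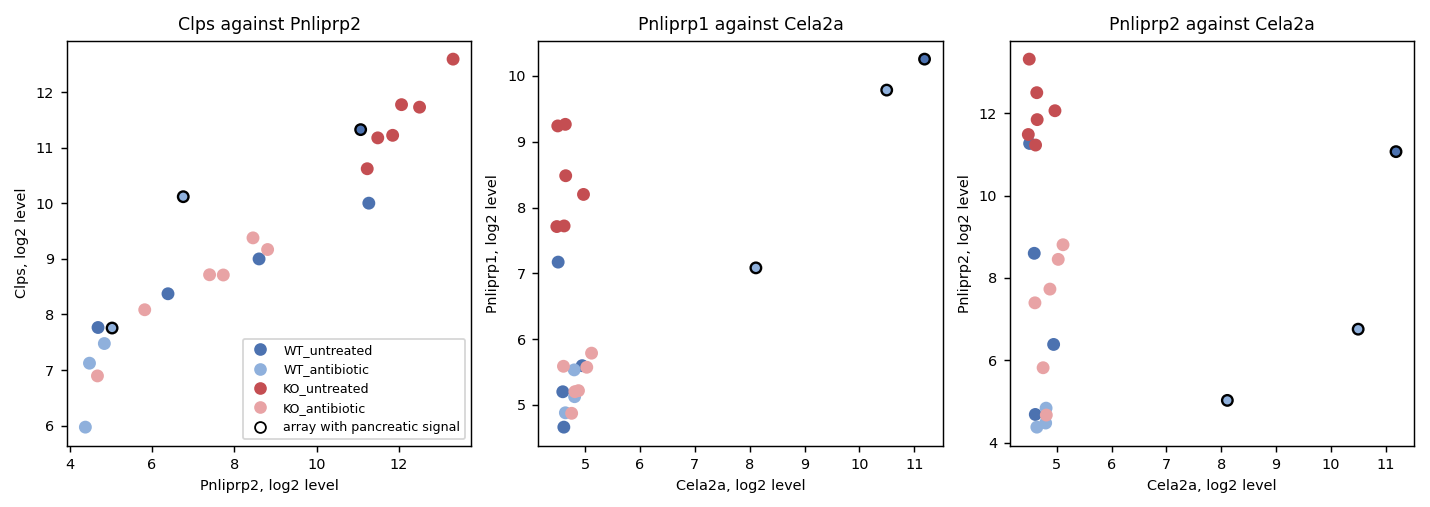
Log2 levels of Clps against Pnliprp2, Pnliprp1 against Cela2a and Pnliprp2 against Cela2a, with a point per array coloured by group and black outlines on the 3 arrays with pancreatic transcripts. Clps and Pnliprp2 lie along a line over all 4 groups, and in both panels with Cela2a the 6 KO_untreated arrays are high while Cela2a stays between 4.48 and 4.97.

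Other genes of the exocrine pancreas were followed in a list of 39, of which 31 had a probe and 10 were tested. With antibiotics, 0 of 10 differed between KO and WT mice by limma (2 at an unadjusted p under 0.05, beside 347 of all 10706 tested genes, median -0.07). By the smallest p these were Nr5a2, an acinar and intestinal nuclear receptor gene, at 0.85 (SE 0.31), the granule protein gene Gp2 at -1.0 (SE 0.48), Amy2a5 at -2.80 (SE 1.41) and Ctrl at -1.0 (SE 0.62). In untreated mice 1 of 10 was past the threshold, Bhlha15, higher in KO, beside 671 of 10706 tested genes higher. With antibiotics Spink1, a trypsin inhibitor gene, was higher at 1.34 (SE 0.26) and Bhlha15 lower in KO mice, and Bhlha15 and Dmbt1, at -0.76 (SE 0.20), were lower in WT mice. These 3 genes were named after their values were seen. Of the 10706 tested genes, 659 were higher and 921 lower with antibiotics in KO mice, and 311 lower in WT mice. Bhlha15 stood at 1.53 (SE 0.33) in untreated KO against WT mice, -2.51 (SE 0.31) with antibiotics in KO and -1.36 (SE 0.34) in WT mice. It lay between 7.04 and 8.09 on KO_untreated arrays and between 4.48 and 5.02 on WT_antibiotic arrays, while Ptf1a and Rbpjl stayed undetected. Spink1, Klk1, Dmbt1 and Nr5a2 were detected on all 22 arrays, as Sycn and Cela1 were.

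Lipases outside the pancreatic family and genes of fat uptake gave few calls. Of 16 other lipase genes with a probe, 10 were tested and 0 passed between KO and WT mice with antibiotics (0 at an unadjusted p under 0.05, median 0.07). By p the first were the lipoprotein lipase gene Lpl at -0.29 (SE 0.26), Pla1a at 0.15 (SE 0.14), Liph at -0.13 (SE 0.14) and Ces2e at 0.19 (SE 0.25). In untreated mice 1 of the 10 was lower in KO, beside 615 of all 10706 tested genes. This was Lpl at -1.35 (SE 0.26), opposite in direction to Pnliprp2. With antibiotics in KO mice Ces1d, named after its values were seen, was higher at 1.68 and Liph, at -0.45 (SE 0.14), lower. Of 16 fat absorption genes, 10 were tested and 0 passed with antibiotics (0 at an unadjusted p under 0.05, median -0.02), with Acsl5 at -0.19 (SE 0.18) and Plin3 at 0.15 (SE 0.17) first by p. Their medians in KO mice with antibiotics against untreated were 0.09 for the other lipases and 0.32 for fat absorption, beside -3.06 for the lipase-type genes.

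Markers of Paneth cells, which secrete antimicrobial proteins at the crypt base of the small intestine and are not typical of the colon, changed in part where Pnliprp2 and Clps differed. Of 21 listed markers 12 had a probe and 11 were tested, and their summed level, in linear units of the normalised signal, was 44280 to 66840 on KO_untreated and 3895 to 30712 on KO_antibiotic arrays. It was 9422 to 58514 on WT_untreated and 3855 to 8918 on WT_antibiotic arrays, where WT_untreated 3 and 4, highest of their group at 58514 and 42858, were also the highest for Pnliprp2. KO_antibiotic 6, lowest for Pnliprp2 and Clps, was also the lowest of its group at 3895. Bright genes weigh most in such a linear sum, and Mptx1 and Ang4 averaged log2 levels of 14.36 and 13.93 on KO_untreated arrays. Itln1 and Ang4, both in the sum, are also the genes most like Pnliprp2 across arrays. The match of the sum with Pnliprp2 thus in part repeats those correlations. Between KO and WT mice with antibiotics 0 of 11 passed by limma (4 at an unadjusted p under 0.05, beside 347 of all 10706 tested genes, median 0.02). Smallest by p were the phospholipase gene Pla2g2a at 1.90 (SE 0.50), the pentraxin gene Mptx1 at 2.19 (SE 0.60), Itln1 at 3.09 (SE 0.95) and Ang4 at 3.31 (SE 1.17). In untreated mice 4 of 11 were past the threshold, higher in KO, 3 of them the defensin genes Defa3, Defa20 and Defa23, and with antibiotics 5 were lower in KO and 3 lower in WT mice. Of all 10706 tested genes, 671 were higher in untreated KO mice, and with antibiotics 921 were lower in KO and 311 lower in WT mice. In untreated KO against WT mice Defa21 stood at 0.01 and Nupr1 at -0.40. Of the 12, between 9 and 11 were detected on a KO_untreated array, 6 to 10 on a WT_untreated array and 5 to 7 on an array with antibiotics, where Defa20 lay near background, at 4.19 to 4.29 in WT mice. The lysozyme gene Lyz1, a defining Paneth marker, was detected on all 22 arrays and stood at -0.13 (SE 0.43) in untreated KO against WT mice. The part of such cells in the levels of Pnliprp2 and Clps was not tested.

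Lists of other cells the preparation could hold passed nothing between KO and WT mice with antibiotics by limma. At an unadjusted p under 0.05 these were 0 of 6 T cell, 1 of 2 B cell, 0 of 8 myeloid and mast cell, 0 of 2 adipose, 0 of 6 stromal, 1 of 5 small intestine enterocyte and 0 of 14 colon epithelium markers, beside 347 of all 10706 tested genes. The summed level of 10 T cell and intraepithelial lymphocyte markers was 2249 to 3183 on KO_untreated, 1799 to 2443 on WT_untreated, 1511 to 2074 on KO_antibiotic and 1203 to 2070 on WT_antibiotic arrays. That of 12 myeloid and mast cell markers was 1166 to 3339 on KO_untreated and 497 to 931 on KO_antibiotic arrays, higher on every KO_untreated array as for Pnliprp2. Of 8 tested, 3 were past the threshold and higher in untreated KO mice and 5 lower with antibiotics in KO mice, beside 671 and 921 of 10706 tested genes. The part of these myeloid and mast cell markers was not tested. Small intestine enterocyte markers were in part higher with antibiotics, as Cela1 was. Their sum over 9 genes was 427 to 697 on WT_antibiotic and 201 to 330 on WT_untreated arrays, which do not overlap, and 299 to 763 on KO_antibiotic and 192 to 406 on KO_untreated arrays. Of 5 tested, 2 were past the threshold and higher in each genotype, beside 285 of 10706 tested genes in WT and 659 in KO mice. These were Sis and Rbp2, named after their values were seen, and their part in the levels of Cela1 was not tested. Adipose and mesentery markers summed to 32.0 to 56.6 on KO_untreated arrays and to at most 83.7 on any array, with 0 to 3 of 7 detected per array. On WT_untreated 4, WT_antibiotic 1 and WT_antibiotic 5, which carried pancreatic transcripts, the sums were 47.8, 40.2 and 46.1. The highest sum, 83.7, was on KO_antibiotic 3, so these markers did not follow the pancreatic transcripts. Whether attached tissue was present was not tested.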

How the data were processed

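The deposited scanner table holds the mean bead signal of each probe as an intensity, with a detection p-value per probe and array, per the file headers. No normalisation of it is stated. A deposited table of processed intensity values was used only as an alternative, and its values read as quantile normalised. Signals were background corrected, quantile normalised and log2 transformed with neqc of limma 3.58.1 (R 4.3.3, offset 16). Probes with a detection p under 0.05 on at least 5 arrays were tested, 19993 of 45281. A limma fit of all 22 arrays had a mean per group, and Benjamini-Hochberg adjustment covered the 19993 probes (threshold 0.05). The number of arrays limits the precision.

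Names came from the platform annotation, which gave 34885 probes 1 symbol, 18 several and 10378 none. Where a gene had several probes, both were shown for the 8 genes. In the other lists the up to 4 genes with the smallest p between KO and WT mice with antibiotics were named, and any other gene was named after its values were seen. The genes and lists were chosen with earlier results of these data known. Scaling, background correction, dim-probe filter, array weights, groups fitted, a replicate block and each array left out were tried as alternatives. The fit was tested on simulated data. Same-numbered arrays did not deviate together. Promoters are those of RefSeq (GRCm38.p6).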

Additional observations from a re-analysis of the deposited data

Results flagged for a closer look

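In 6 of 40 sets of 1 probe and 1 group, an end value stood apart from the rest of its group by Dixon's criterion, which chance meets in about 1 of 20 sets. Pnliprp2 on WT_antibiotic 5 was the highest of its group at 6.76, above 5.03. Cela2a on WT_untreated 4 was the highest at 11.19, above 4.94, and Cela3b on the same array was the highest at 8.49, above 4.88. These 3 values lie on arrays with pancreatic transcripts. Cela2a on KO_untreated 4 was the highest of its group at 4.97, above 4.64, both near background. Cela1 on WT_antibiotic 1 was the lowest of its group at 11.07, below 11.60, and Cpb1 (ILMN_1259010) on WT_untreated 5 the lowest at 4.33, below 4.56.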

How the results depend on the processing

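Between KO and WT mice with antibiotics, 0 of the tested probes passed under any alternative run. With each array left out in turn, Pnliprp2 ranged from 1.72 to 2.55, Clps from 0.37 to 1.41, Pnliprp1 from -1.51 to -0.28, Sycn from 0.49 to 1.13, Cela1 from -0.37 to -0.12, Cela2a from -2.19 to -0.72 and Cela3b from -1.40 to -0.44. Cpb1 ranged from -0.087 to 0.023 and changed sign without KO_antibiotic 3 (0.014), KO_antibiotic 6 (0.023) or WT_antibiotic 5 (0.012). Without the 3 arrays with pancreatic transcripts, an alternative chosen after seeing the data, Pnliprp1 was 0.19, Cela2a 0.12 and Cpb1 0.047, each of opposite sign to the value with them; the cause was not tested. Same-numbered arrays correlated from -0.38 to 0.53 (12 of 31 pairs over 0.1), so the numbers were not taken to pair them. With the replicate block Pnliprp2 was 2.17 and Clps 0.85, and calls over all probes in untreated mice were 3358 in place of 2180. Scaling by the median of all probes gave 319 there, 75.2% higher in place of 50.9%, 237 in place of 950 with antibiotics in WT mice (32.1% higher in place of 52.3%) and 1283 in place of 2478 in KO mice (29.4% in place of 43.0%). Without the 3 arrays calls were 787 in untreated mice and 73 with antibiotics in WT mice, and with KO_untreated 1 alone 112 in untreated mice and 359 with antibiotics in KO mice. Probes near background have understated differences, and both Cpb1 probes and Cela2a were at that level on most arrays.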
